A study of Mus musculus with 23 samples.

Results

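The comparison described here is the effect of a calcineurin transgene in mouse hearts that were all exposed to JIB-04, at 45 days of age. Its members were chosen by their sample titles: 3 heart libraries from transgenic mice given JIB-04 (CnaTg) were compared with 3 from wild type mice given JIB-04 (WT), 6 of the 23 libraries of the series. Both groups were C57BL/6 mice of postnatal day 45 dosed with JIB-04 at 50 mg/kg, 3 times a week. Transgenic mice of this age started treatment at week 4; the start week of the WT JIB-04 mice is not given in their labels, and the written design of the study describes WT mice with vehicle only. For comparison, 3 CnaTg and 3 WT hearts with vehicle at day 45 were used, and at day 77 (treatment from week 5 in CnaTg) 4 CnaTg and 3 WT hearts with JIB-04. The labels do not say that each library came from its own mouse, so p-values measure the spread between libraries.

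Calcineurin is a phosphatase switched on by calcium and calmodulin. It removes phosphates from NFAT transcription factors, which then enter the nucleus, and a constantly active calcineurin A under the alpha myosin heavy chain promoter, which is active in heart muscle cells, is a standard model of severe cardiac hypertrophy. Hypertrophic hearts are known to return to genes of fetal muscle, to lay down matrix and to use less fatty acid. JIB-04 inhibits Jumonji demethylases, enzymes that take methyl groups off histones. JIB-04 was given to both groups at the same labelled dose, and the comparison varies the genotype. The length of exposure in WT is not known to match that in CnaTg. A batch of the WT JIB-04 hearts cannot be told apart from the genotype.

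Expression was given as fragment counts scaled by transcript length and library size (FPKM), deposited as log2(FPKM + 1). Of 43154 features, 12803 reached 1 FPKM in 3 or more of the 6 libraries and were tested. Per library, between 12512 and 12714 features were at this level. Pearson correlations of the log2 values were 0.975 to 0.990 between libraries of one genotype and 0.939 to 0.951 between genotypes. WT JIB-04 replicate 2 stood apart: small structural RNAs held 15.3% of its summed FPKM, against 0.531 to 1.35% in the other 5, and its relative depth, inferred from how finely its low values are spaced, was 0.653 of the mean library against 0.969 to 1.30. Mitochondrial genes other than mt-Co3, mt-Atp8 and mt-Atp6 held 15.5 to 16.7% of the FPKM in CnaTg and 20.8 to 24.8% in WT. Those 3 genes were left out of the summed FPKM for this share and for that of structural RNAs. CnaTg libraries were deeper (1.07 to 1.30) than WT libraries (0.653 to 1.01). The part of these differences in the results was not tested, and most counts over gene lists are given below with and without WT replicate 2. The Y-linked Ddx3y was at 11.7 and 16.7 FPKM in CnaTg replicates 1 and 2 and 18.2 FPKM in WT replicate 3, while Xist, RNA of the inactive X, was at 33.7 FPKM in CnaTg replicate 3 and at 38.7 and 37.0 FPKM in WT replicates 1 and 2. Male libraries thus made up 2 of 3 in CnaTg and 1 of 3 in WT; with Xist against Ddx3y as a covariate, 4881 features passed, against 5058 without it. In whole hearts, fewer cells of a type and less RNA per cell cannot be told apart.

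The 250 bases before the start sites of 3 genes that were higher in CnaTg and 1 that was lower are printed to show where the NFAT core lies there: Rcan1 was taken as a known target of calcineurin, and the other 3 from the 15 largest differences each way. The sequences are those of RefSeq for GRCm38.p6, 5′ to 3′ in the direction of the gene. Capitals mark the NFAT core, GGAAA or its reverse complement TTTCC. Rcan1 (an inhibitor of calcineurin that calcineurin itself induces) is shown at its internal start (chr16:92400079-92400328, minus strand), Dkk2 at chr3:132085042-132085291, plus strand, Ppp1r1c at chr2:79707530-79707779, plus strand and Ramp1 at chr1:91179572-91179821, plus strand.
Rcan1: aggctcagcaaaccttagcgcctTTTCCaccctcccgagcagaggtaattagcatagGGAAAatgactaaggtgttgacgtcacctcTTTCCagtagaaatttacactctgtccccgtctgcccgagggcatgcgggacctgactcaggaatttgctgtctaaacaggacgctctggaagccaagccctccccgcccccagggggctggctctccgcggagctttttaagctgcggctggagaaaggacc
Dkk2: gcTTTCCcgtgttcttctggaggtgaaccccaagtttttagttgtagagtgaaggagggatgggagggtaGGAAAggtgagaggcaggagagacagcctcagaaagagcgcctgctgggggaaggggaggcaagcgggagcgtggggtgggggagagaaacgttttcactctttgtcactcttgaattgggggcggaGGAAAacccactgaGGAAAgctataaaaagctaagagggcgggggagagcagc
Ppp1r1c: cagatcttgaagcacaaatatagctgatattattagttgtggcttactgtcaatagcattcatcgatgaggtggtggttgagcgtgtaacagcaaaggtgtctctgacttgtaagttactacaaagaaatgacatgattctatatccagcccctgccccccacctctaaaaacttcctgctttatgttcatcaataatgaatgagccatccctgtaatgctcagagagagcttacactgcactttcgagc
Ramp1: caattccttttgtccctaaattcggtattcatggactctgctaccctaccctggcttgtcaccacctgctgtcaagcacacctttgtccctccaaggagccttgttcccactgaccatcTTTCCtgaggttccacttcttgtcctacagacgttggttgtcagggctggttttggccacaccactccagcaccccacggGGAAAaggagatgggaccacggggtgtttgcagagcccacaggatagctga
The window of Rcan1 held 3 cores, that of Dkk2 4 and that of Ramp1 2, while Ppp1r1c had none. Over all 32851 promoter windows of this length in the table, 55.6% held at least 1 core. Among the 15 genes with the largest increases, 10 matched the table with 12 windows, and 7 of these (58.3%) held a core. Among the 15 largest decreases, 10 genes matched with 13 windows, and 8 (61.5%) held one, so the share was close to that of all promoters in both directions. CATTCC, the M-CAT motif, was in 12.6% of all windows, 2 of 12 and 2 of 13, and CTANNNNTAG, the core of the MEF2 motif, in 3.20%, 1 of 12 and 1 of 13, with both strands counted. CATTCC shares the letters TTCC with the NFAT core, but neither contains the other. A match of letters is a description and not a binding site.

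The transgene was visible in every library. Ppp3ca, the calcineurin A alpha gene (chromosome 3, 136670124 to 136937727, GRCm38), stood at 1757, 1597 and 1987 FPKM in the CnaTg libraries and 23.6, 25.3 and 24.8 FPKM in the WT libraries. The groups were far apart and did not overlap (log2 difference 6.12, SE 0.08, limma adjusted p = 1.24e-12). RNA of the transgene counts toward Ppp3ca only where its reads align to the mouse gene. Ppp3cb, the gene of the beta catalytic subunit, averaged 26.1 ± 1.28 FPKM with the transgene and 27.5 ± 0.511 FPKM without it (SD, n = 3 each; log2 difference -0.08), and did not pass the test. Igsf23, an immunoglobulin superfamily gene (chromosome 7, 19937305 to 19950743), was at 61.0, 75.4 and 63.9 FPKM in the CnaTg libraries and 0.882, 0.512 and 0.854 FPKM in the WT libraries. It was nearly silent in WT and clearly expressed in every CnaTg heart (log2 difference 5.28, SE 0.13). Ces1d, a carboxylesterase that splits triglycerides (chromosome 8, 93166068 to 93197838), showed the reverse, with 3.49, 5.96 and 3.13 FPKM in the CnaTg libraries and 87.1, 70.8 and 81.8 FPKM in the WT libraries (log2 difference -4.00, SE 0.19).

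Across all features, 5058 of 12803 (39.5%) differed between genotypes at a Benjamini-Hochberg adjusted p under 0.05 (limma), 2689 higher (21.0%) and 2369 lower (18.5%) in CnaTg. At least 2-fold higher were 394 (3.08%) and at least 2-fold lower 281 (2.19%), on the log2(FPKM + 1) scale, which understates the change of genes near 0. The 6 libraries did not overlap between genotypes for 51.1% of features. The median 95% interval of a difference reached 0.22 log2 units to each side. The direction of the mass of small differences depended on scaling: when mitochondrial and hemoglobin transcripts were dropped and the other genes rescaled to a common sum, the median of all features moved by 0.22 log2 units and 83.5% of calls were higher, against 53.2% as deposited. Of the genes described below, Myh6, Mylk3, Csrp3, Mef2c, Esrra, Mfn1, Nrf1, Ckb, Ckmt2, Col4a1, Gja1, Pdgfa, Vegfa, Cd163, Lyve1, Kdm6b and Phf8 lost their call under that rescaling, to which the rescaled counts below refer. Its sum still held the structural RNAs, 15.3% of the FPKM of WT replicate 2, and the part of that library in the shift was not tested. With a sum of nuclear coding genes without hemoglobin, chosen after seeing the data, the median moved by 0.035 log2 units. There 59.0% of calls were higher, and none of the genes just listed lost its call. The members of the lists below are therefore best read against the median of all features, 0.02. Counts over lists are to be read against the shares of all features, 21.0% higher and 18.5% lower.

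**Figure D1:**
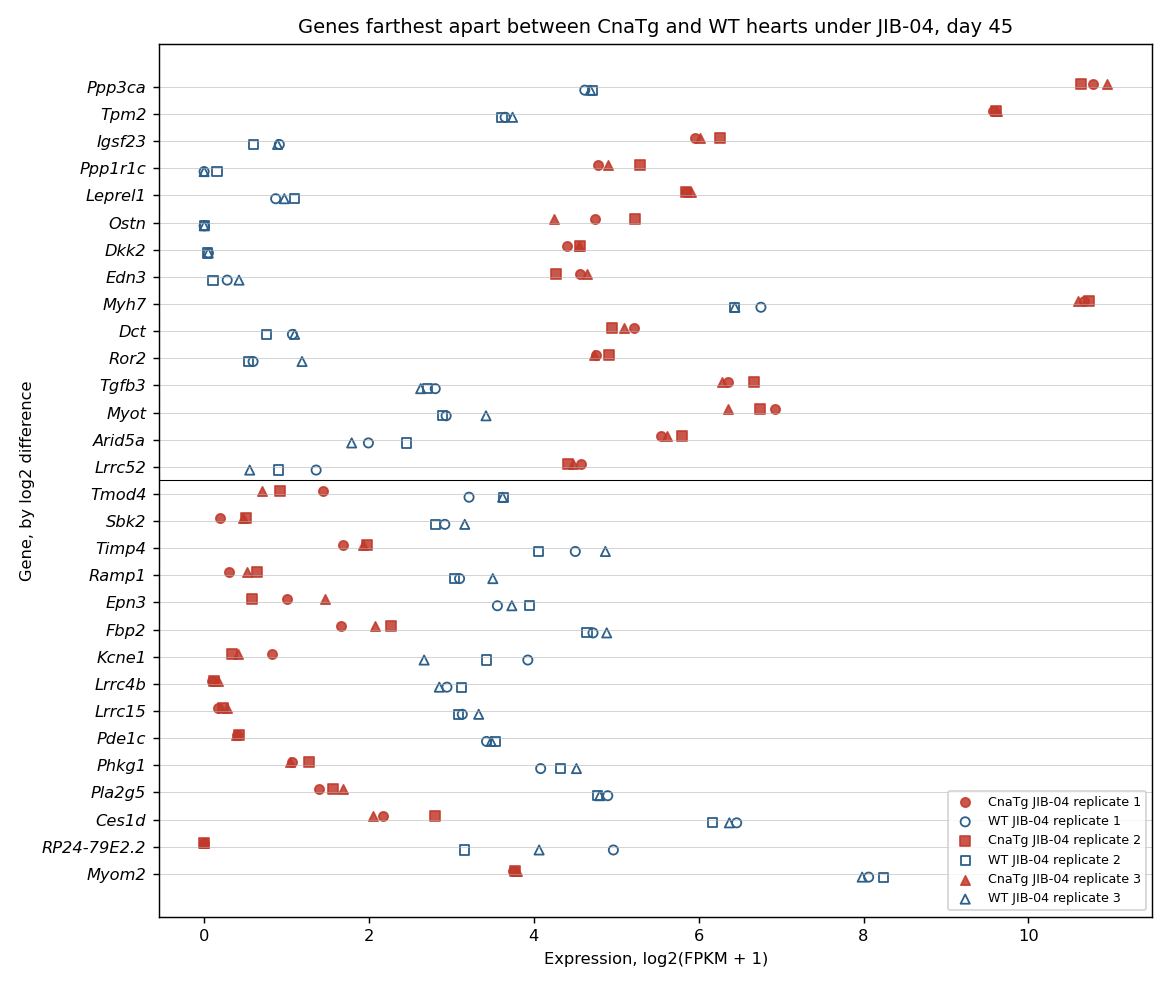
Expression of the 30 genes with the largest differences, one row per gene, as log2(FPKM + 1); filled red symbols are the 3 CnaTg and open blue symbols the 3 WT libraries under JIB-04 at day 45. The 15 higher genes stand above the line and the 15 lower below it. In each row the genotypes do not overlap, which was a condition for choosing these genes. The lower group of many rows lies near 0.

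Of the 15 genes with the largest increases, 5 code for secreted signals or a receptor of one: Ostn, Dkk2, Edn3, Ror2 and Tgfb3. Ostn, a muscle-derived hormone that competes with natriuretic peptides for their clearance receptor, was at 25.8, 36.3 and 17.9 FPKM in the CnaTg libraries and 0, 0 and 0.00139 FPKM in the WT libraries. Dkk2, a secreted regulator of Wnt signalling, was at 20.1, 22.5 and 22.4 FPKM in the CnaTg libraries and 0.0367, 0.0274 and 0.0353 FPKM in the WT libraries. Edn3, one of the endothelins, was at 22.7, 18.3 and 24.0 FPKM in the CnaTg libraries and 0.214, 0.0777 and 0.341 FPKM in the WT libraries. All 3 genes were near silent in WT, so that the 1 FPKM added before taking logs holds down their log2 differences of 4.74, 4.46 and 4.22. Ror2, a receptor kinase for noncanonical Wnt ligands, was at 25.9, 29.1 and 25.4 FPKM in the CnaTg libraries and 0.509, 0.454 and 1.28 FPKM in the WT libraries (log2 difference 4.02, SE 0.14). Tgfb3, a transforming growth factor beta (chromosome 12, 86056744 to 86079041), was at 80.7, 101 and 76.8 FPKM in the CnaTg libraries and 5.98, 5.56 and 5.18 FPKM in the WT libraries (log2 difference 3.72, SE 0.13, limma adjusted p = 2.65e-09). Libraries that do not overlap were a condition for naming the genes by size, so their separation is not a result.

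Genes of muscle structure were also among the 15. Tpm2, the beta tropomyosin of skeletal muscle and fetal heart (chromosome 4, 43514711 to 43523765), was at 762, 776 and 786 FPKM in the CnaTg libraries and 11.6, 11.2 and 12.4 FPKM in the WT libraries, with the smallest standard error of the 30 differences (log2 difference 5.93, SE 0.05). Myh7, which codes for the slow beta heavy chain of myosin (chromosome 14, 54970688 to 54994634), was at 1634, 1702 and 1549 FPKM in the CnaTg libraries and 107, 85.5 and 85.7 FPKM in the WT libraries (log2 difference 4.13, SE 0.10). Myot, a Z-disc protein that binds alpha-actinin, was at 121, 106 and 80.8 FPKM in the CnaTg libraries and 6.65, 6.43 and 9.70 FPKM in the WT libraries (log2 difference 3.59, SE 0.18). These 3 genes had measurable levels in WT, unlike most of the signalling genes. The remaining increases ran across functions. Ppp1r1c, an inhibitor of protein phosphatase 1 (chromosome 2, 79707780 to 79818496), was at 26.5, 38.1 and 28.9 FPKM in the CnaTg libraries and 0, 0.115 and 0 FPKM in the WT libraries. Leprel1 (P3h2), which hydroxylates collagen prolines, was at 56.5, 56.6 and 59.2 FPKM in the CnaTg libraries and 0.825, 1.13 and 0.963 FPKM in the WT libraries. Both stood near or below 1 FPKM in WT. Dct, an enzyme of melanin synthesis, rose by 4.11 log2 units, Arid5a, which binds and stabilises messenger RNAs of inflammation, by 3.57, and Lrrc52, an accessory subunit of potassium channels, by 3.55.

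The decreases led with Myom2. This gene, for an M-band protein that ties thick filaments together (chromosome 8, 15057653 to 15133541), was at 12.4, 12.7 and 12.9 FPKM in the CnaTg libraries and 266, 302 and 252 FPKM in the WT libraries (log2 difference -4.32, SE 0.14, limma adjusted p = 1.85e-09). The 3 CnaTg values lay within 1 FPKM of each other. Pla2g5, a secreted phospholipase A2, averaged 1.93 ± 0.287 FPKM with the transgene and 27.3 ± 1.28 FPKM without it (SD, n = 3 each). Phkg1, the catalytic subunit of the kinase that activates glycogen phosphorylase, was at 1.09, 1.41 and 1.05 FPKM in the CnaTg libraries and 15.9, 19.1 and 21.9 FPKM in the WT libraries. Fbp2, the fructose bisphosphatase of muscle, was at 2.17, 3.81 and 3.21 FPKM in the CnaTg libraries and 25.3, 24.0 and 28.5 FPKM in the WT libraries. The log2 differences of these enzymes were -3.28, -3.18 and -2.75. Kcne1, a subunit of the slow delayed rectifier potassium channel, was at 0.770, 0.262 and 0.331 FPKM in the CnaTg libraries and 14.2, 9.77 and 5.36 FPKM in the WT libraries (log2 difference -2.82, SE 0.29). Its WT libraries spread widely. Pde1c, a calcium-stimulated phosphodiesterase that degrades cyclic nucleotides, was at 0.320, 0.340 and 0.309 FPKM in the CnaTg libraries and 9.75, 10.6 and 10.2 FPKM in the WT libraries. Ramp1, a partner of the calcitonin gene-related peptide receptor, was at 0.236, 0.565 and 0.437 FPKM in the CnaTg libraries and 7.57, 7.22 and 10.3 FPKM in the WT libraries.

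Timp4, an inhibitor of matrix metalloproteinases, was at 2.21, 2.92 and 2.80 FPKM in the CnaTg libraries and 21.7, 15.6 and 28.2 FPKM in the WT libraries (log2 difference -2.62, SE 0.28). Tmod4, which caps thin filaments (-2.47), the endocytic adaptor Epn3 (-2.73), the kinase gene Sbk2 (-2.57), and the leucine-rich repeat genes Lrrc15 (-2.96) and Lrrc4b (-2.85) were lower by log2 differences of a similar size. A feature deposited under a clone name, at the locus of the GENCODE model Gm34302 on chromosome 3 (63481112 to 63483879), was listed at 0 in the 3 CnaTg libraries and at 30.2, 7.93 and 15.7 FPKM in WT. Of the 30 genes, 9 of the 15 higher had a WT mean under 1 FPKM, and 7 of the 15 lower had a CnaTg mean under 1 FPKM. By a lookup of the deposited symbols, exons of Ostn, Myh7, Tgfb3, Timp4 and Phkg1 overlap a gene on the other strand, whose reads the library kit cannot separate. The lookup did not cover the feature under a clone name, and it did not list Leprel1, although an antisense model overlaps one of its ends. The 492 recomputed values of the 30 genes under other filters, scalings, pseudocounts and left-out libraries kept direction and side of the threshold. These genes were chosen as the largest differences past the threshold, so this says little of other genes.

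The balance within gene families shifted in CnaTg. Myh7 made up 38.5% ± 2.60 (SD, n = 3) of the summed FPKM of Myh6 and Myh7 in CnaTg and 2.80% ± 0.407 in WT. Myh6, the fast alpha heavy chain, had 2631, 2434 and 2758 FPKM in the CnaTg libraries and 3197, 3424 and 3054 FPKM in the WT libraries; it was slightly lower (log2 difference -0.31, SE 0.07, limma adjusted p = 0.00314), although quantile normalization put it at 0.058. The rise of the Myh7 share therefore rested on Myh7 itself and not on a loss of Myh6 of like size. Among tropomyosins, Tpm2 rose from 0.420% ± 0.0558 of the sum of Tpm1, Tpm2 and Tpm3 to 24.3% ± 0.873. Tpm1 remained the most abundant of them at 2449.7, 2269.8 and 2446 FPKM in the CnaTg libraries and 2685, 3065 and 2568 FPKM in the WT libraries (log2 difference -0.21, which turned positive, at 0.26 and 0.042, after quantile normalization and after rescaling without mitochondrial and hemoglobin genes; its call was lost without any library but WT replicate 3).

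In the M-band, Myom2 made up 54.1% ± 3.22 of the myomesin FPKM in WT and 3.86% ± 0.254 in CnaTg. Myom1, the constitutive member, was modestly higher with 329.6, 314 and 299 FPKM in the CnaTg libraries and 219, 228 and 245 FPKM in the WT libraries (log2 difference 0.44, SE 0.07). Myom3 was at 2.32, 2.11 and 2.15 FPKM in the CnaTg libraries and 0.932, 1.02 and 1.29 FPKM in the WT libraries and stayed the scarcest. Among the transforming growth factors, Tgfb1 held 58.8% ± 4.14 of the sum in WT and 8.17% ± 1.36 in CnaTg, while Tgfb3 went from 28.5% ± 3.71 to 70.9% ± 5.38. Tgfb1 itself had overlapping levels, 10.6, 8.98 and 9.82 FPKM in the CnaTg libraries and 9.95, 13.7 and 11.2 FPKM in the WT libraries (log2 difference -0.21), and did not pass the test. Tgfb2 rose as well, with 33.1, 24.5 and 19.0 FPKM in the CnaTg libraries and 2.42, 2.72 and 2.35 FPKM in the WT libraries (log2 difference 2.89, SE 0.15). Because these family members share stretches of sequence, how the counting divided reads between them is uncertain.

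**Figure D2:**
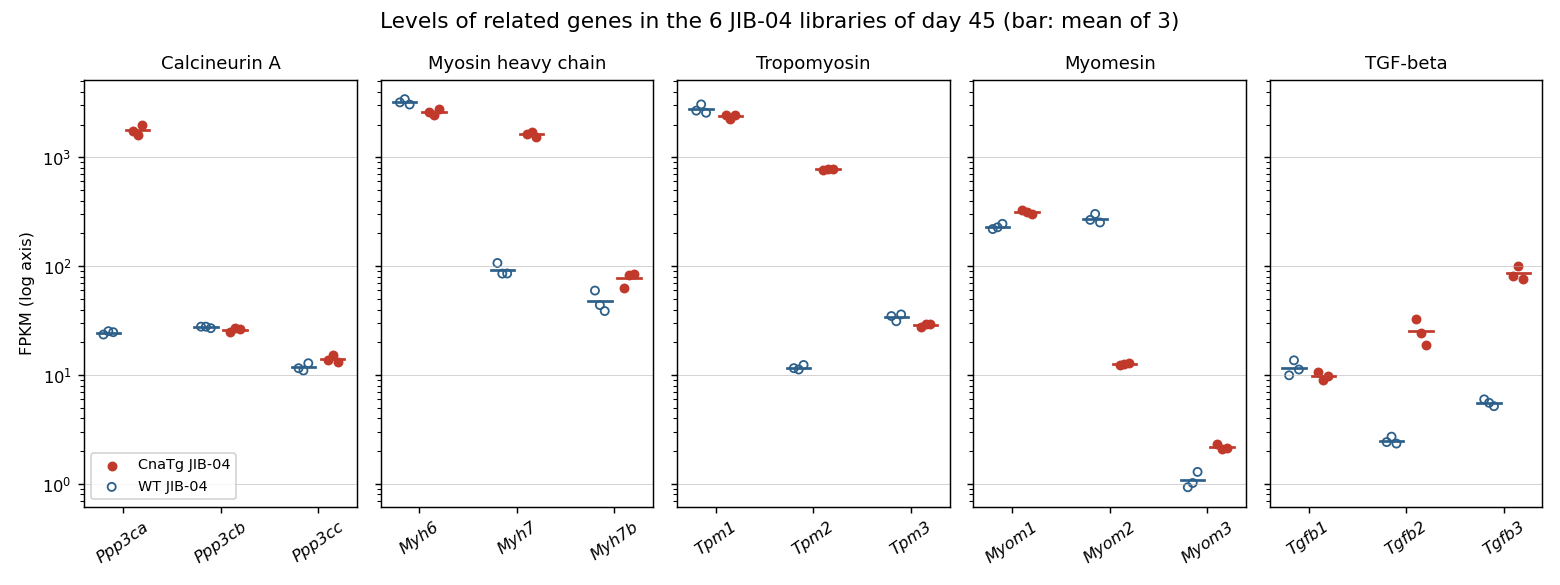
FPKM on a log axis of 5 gene families in the 6 libraries; filled red points are CnaTg, open blue points WT, both under JIB-04 at day 45, and bars are means of 3. Ppp3ca, Myh7, Tpm2, Tgfb2 and Tgfb3 lie far above WT and Myom2 far below, while their relatives lie nearer to WT.

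In the list of calcineurin and NFAT pathway genes, 8 of 22 tested members were higher and 3 lower (6 higher and 3 lower without WT JIB-04 replicate 2), beside 21.0% and 18.5% of all features, with a median log2 difference of 0.04. Ppp3ca, the gene of the transgene itself, is counted among the 8. Rcan1 (chromosome 16, 92391953 to 92466146) was at 87.5, 79.9 and 66.8 FPKM in the CnaTg libraries and 24.8, 24.1 and 25.6 FPKM in the WT libraries (log2 difference 1.60, SE 0.11, limma adjusted p = 9.10e-07), and its relative Rcan2 rose by 0.77. The NFAT gene Nfatc2 fell by 0.71 on the log2 scale, and the MEF2 factors Mef2a and Mef2c fell by 0.51 and 0.45. The other 11 members did not pass the test.

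Of the fetal and hypertrophic genes, 11 of 13 were higher and 2 lower (11 higher and 2 lower without WT JIB-04 replicate 2), with a median of 1.84. With at least 1 FPKM in all 6 libraries, 10 were higher and 2 lower of 12. Nppb, the B-type natriuretic peptide gene, was at 590.4, 626 and 431 FPKM in the CnaTg libraries and 116, 200.3 and 144 FPKM in the WT libraries (log2 difference 1.85, SE 0.36). Nppa, the atrial natriuretic peptide gene, was at 1118, 542 and 735 FPKM in the CnaTg libraries and 356, 338 and 223 FPKM in the WT libraries (log2 difference 1.35, SE 0.29, limma adjusted p = 0.00302). Both were higher in every CnaTg library, but Nppa ranged more within CnaTg than the gap between the groups. Sprr1a, a small proline-rich protein of stressed heart muscle, was at 6.91, 3.82 and 15.7 FPKM in the CnaTg libraries and 0, 0.165 and 0 FPKM in the WT libraries, and Nmrk2, which makes NAD from nicotinamide riboside, was at 25.0, 20.7 and 16.8 FPKM in the CnaTg libraries and 2.86, 2.59 and 2.36 FPKM in the WT libraries. The 2 members that were lower, the LIM proteins Csrp3 (-0.34) and Fhl2 (-0.23), moved little: Fhl2 turned to 0.023 after the rescaling and lost its call without CnaTg replicate 2 or WT replicate 1, and 0 members were lower after the rescaling or quantile normalization.

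Thick filament and M-band genes split, 9 higher and 6 lower of 18 (8 higher and 6 lower without WT JIB-04 replicate 2; 9 higher and 2 lower after the rescaling), median 0.29. Beside Myh7 and Myom2, the myosin light chain Myl1 rose by 0.95 and the kinase gene Mylk4 by 0.78, while its relative Mylk3 fell by 0.37 and the fast skeletal binding protein Mybpc2 fell by 0.85 on the log2 scale. Thin filament and Z-disc genes were higher in 13 of 24 and lower in 4 (13 higher and 3 lower without WT JIB-04 replicate 2; 2 lower without any 1 CnaTg library or WT replicate 1), median 0.51. Pdlim3, an actin-associated LIM protein, was at 34.8, 33.7 and 30.1 FPKM in the CnaTg libraries and 7.87, 8.66 and 8.73 FPKM in the WT libraries. Of the troponin I genes, Tnni3, the adult cardiac form, was at 2034, 1976 and 2096 FPKM in the CnaTg libraries and 2828, 3155 and 2620.2 FPKM in the WT libraries (log2 difference -0.49, SE 0.07), and Tnni2, the fast skeletal form, fell by 1.58. Under quantile normalization the log2 difference of Tnni3 was -0.19 and its call was lost.

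Genes of the intercalated disc, costamere and cytoskeleton were higher in 11 of 23 and lower in 6 (11 higher and 5 lower without WT JIB-04 replicate 2), median 0.12. The membrane anchor genes Dmd (dystrophin) and Sgcd (delta-sarcoglycan) rose together, Dmd with 69.2, 69.0 and 69.6 FPKM in the CnaTg libraries and 27.2, 21.6 and 22.0 FPKM in the WT libraries (log2 difference 1.52, SE 0.08) and Sgcd by 1.26. Dsg2, a desmosomal cadherin, fell by 1.34, the intermediate filament gene Nes fell by 1.22 and the costamere protein gene Itgb1bp2 fell by 0.80. Tubb2b, a beta tubulin, rose by 1.19.

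Ion handling genes went both ways, beside 21.0% higher and 18.5% lower over all features. Among calcium handling genes 8 of 23 were higher and 6 lower (8 higher and 5 lower without WT JIB-04 replicate 2; 11 higher and 3 lower after the rescaling), with a median of -0.02 that turned to 0.22. Casq1, the calsequestrin of fast skeletal muscle, was at 64.4, 38.5 and 69.0 FPKM in the CnaTg libraries and 7.53, 5.36 and 9.36 FPKM in the WT libraries (log2 difference 2.78, SE 0.26). Cacna1g, a T-type calcium channel, rose by 1.30, and Slc8a1, the sodium-calcium exchanger, by 0.86. Pln, the inhibitor of the calcium pump of the sarcoplasmic reticulum, fell by 0.47, the kinase gene Camk2a fell by 1.20 and S100a1 fell by 0.72. Under quantile normalization the log2 difference of Pln was -0.20 and its call was lost.

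The skeletal muscle channel Scn4a and the accessory subunit Scn4b rose by 0.92 and 1.48. The pacemaker channels went opposite ways, Hcn2 falling with 1.90, 1.88 and 1.67 FPKM in the CnaTg libraries and 10.8, 11.7 and 10.9 FPKM in the WT libraries and Hcn4 rising with 6.59, 6.93 and 6.83 FPKM in the CnaTg libraries and 2.51, 1.58 and 3.66 FPKM in the WT libraries. Gja1, the connexin of ventricular gap junctions, had a log2 difference of -0.49, a call that was lost without WT replicate 2, CnaTg replicate 1 or CnaTg replicate 3. Over the 10 sodium, pacemaker and gap junction channels tested, 3 were higher and 6 lower (3 higher and 5 lower without WT JIB-04 replicate 2; 3 higher and 2 lower after the rescaling).

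Adrenergic and cyclic nucleotide genes were higher in 8 and lower in 9 of 28, beside 21.0% and 18.5% of all features. The counts were 8 higher and 8 lower without WT JIB-04 replicate 2. After the rescaling 11 were higher and 6 lower, and the median of -0.15 turned to 0.09. With at least 1 FPKM in all 6 libraries, 7 were higher and 7 lower of 23. Phosphodiesterases differed by family: Pde7a, specific for cyclic AMP, averaged 34.6 ± 2.63 FPKM with the transgene and 9.32 ± 3.24 FPKM without it (SD, n = 3 each), while Pde1c fell as described and Pde3a fell by 0.63. Ednra, a receptor for endothelins, rose with 45.7, 42.2 and 46.1 FPKM in the CnaTg libraries and 13.3, 12.7 and 10.8 FPKM in the WT libraries (log2 difference 1.79, SE 0.13).

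Genes of energy metabolism were mostly lower. Of the fatty acid genes 22 of 36 were lower and 2 higher (2 higher and 19 lower without WT JIB-04 replicate 2), median -0.36, beside 18.5% and 21.0% of all features. Beside Ces1d, Acaa2, the last thiolase of beta oxidation, averaged 238 ± 26.3 FPKM with the transgene and 506 ± 33.6 FPKM without it (SD, n = 3 each), and the thioesterase Acot1, which has a near-identical neighbour, fell by 1.41. Pdk4, which restrains glucose oxidation, and Ppara, the receptor that drives fatty acid genes, were the 2 members that were higher, by 0.93 and 0.47. The call of Pdk4 was lost without any 1 CnaTg library or WT replicate 1, and that of Ppara without CnaTg replicate 3. Respiratory chain and citric acid cycle genes were lower in 32 of 36 and higher in 0 (1 higher and 30 lower without WT JIB-04 replicate 2), median -0.40. Cs, citrate synthase (chromosome 10, 128337832 to 128362479), was at 304, 310.0 and 309 FPKM in the CnaTg libraries and 502, 503 and 489 FPKM in the WT libraries (log2 difference -0.69, SE 0.04), and Cox7a1, a heart and muscle form of a cytochrome oxidase subunit, fell by 0.88 on the log2 scale. After the rescaling, the counts were 6 higher and 13 lower for fatty acid genes and 4 higher and 12 lower for the respiratory chain, with medians of -0.11 and -0.15 beside a median of 0.24 over all features. Rescaled on nuclear coding genes instead, they were 3 higher and 20 lower for fatty acid genes. For the respiratory chain they were then 2 higher and 32 lower.

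The 10 tested genes of the mitochondrial genome were all lower as deposited, median -0.63 (9 of 10 without WT replicate 2); under quantile normalization 2 were higher and 1 lower with a median of 0.11, and mt-Co1 and mt-Nd3 turned to 0.22 and 0.40. Regulators of mitochondrial number moved less: of 14 genes, 1 was higher and 3 lower, beside 21.0% and 18.5% of all features. The counts were 2 higher and 2 lower without WT JIB-04 replicate 2, and 5 higher and 0 lower after the rescaling. The 3 lower ones as deposited were the nuclear receptor gene Esrra (-0.40), the fusion gene Mfn1 (-0.36) and the transcription factor gene Nrf1 (-0.34), and Pink1, a kinase of mitochondrial quality control, was higher by 0.20. Nrf1 lost its call without any 1 library but CnaTg replicate 2 and WT replicate 3, and Pink1 without CnaTg replicate 2, WT replicate 1 or WT replicate 3.

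Glucose and glycogen genes were higher in 9 and lower in 17 of 36 (8 higher and 17 lower without WT JIB-04 replicate 2; 12 higher and 7 lower after the rescaling), and the median of -0.17 turned to 0.09. Opposite moves stood at single steps of the pathway. Gpi1, glucose phosphate isomerase, was at 776, 777 and 790.3 FPKM in the CnaTg libraries and 252, 248 and 239.9 FPKM in the WT libraries (log2 difference 1.66, SE 0.06), and Hk1, a hexokinase, rose by 1.06, while the phosphofructokinase Pfkp fell by 1.66. In phosphorylase kinase, the catalytic Phkg1 fell as described and the regulatory Phka1 was at 48.6, 49.5 and 48.0 FPKM in the CnaTg libraries and 7.99, 8.68 and 7.98 FPKM in the WT libraries (log2 difference 2.43, SE 0.07). Bdh1, which interconverts ketone bodies, was at 357, 339 and 326 FPKM in the CnaTg libraries and 32.1, 40.1 and 32.4 FPKM in the WT libraries (log2 difference 3.26, SE 0.10) and the creatine transporter Slc6a8 rose by 0.83, while creatine kinases Ckm, Ckmt2 and Ckb were lower, with log2 differences of -0.72, -0.41 and -0.39. In this list of 14 genes, 2 were higher and 7 lower (2 higher and 6 lower without WT JIB-04 replicate 2; 3 higher and 1 lower after the rescaling).

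Matrix genes were mostly higher. Of the structural matrix genes 20 of 28 were higher and 1 lower (20 higher and 0 lower without WT JIB-04 replicate 2), median 0.77. The higher count was 16 without CnaTg replicate 1, CnaTg replicate 3 or WT replicate 3. It was 17 without WT replicate 1 and 23 without CnaTg replicate 2. Col1a1, a chain of type I collagen (chromosome 11, 94936224 to 94953042), was at 47.1, 38.9 and 60.0 FPKM in the CnaTg libraries and 20.5, 21.1 and 16.1 FPKM in the WT libraries (log2 difference 1.28, SE 0.14, limma adjusted p = 2.75e-05), and Postn, periostin of activated fibroblasts, averaged 24.5 ± 10.9 FPKM with the transgene and 11.4 ± 1.32 FPKM without it (SD, n = 3 each), a call that was lost without CnaTg replicate 1, CnaTg replicate 3 or WT replicate 3. Spp1, osteopontin, was at 6.26, 3.40 and 21.7 FPKM in the CnaTg libraries and 0.162, 0.160 and 0.103 FPKM in the WT libraries, a wide spread within CnaTg. Comp and Cilp, matrix proteins of cartilage and stressed heart, rose by 2.43 and 2.42, and the basement membrane collagen Col4a1 was the 1 member that was lower (-0.38; its call was lost without WT replicate 2, WT replicate 3 or CnaTg replicate 2).

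Among matrix processing genes 12 of 22 were higher and 2 lower (11 higher and 2 lower without WT JIB-04 replicate 2), median 0.47. Inhibitors of metalloproteinases moved in opposite directions. Timp1 averaged 14.1 ± 4.88 FPKM with the transgene and 1.38 ± 0.320 FPKM without it (SD, n = 3 each; log2 difference 2.62), against the fall of Timp4. The membrane protease Mmp15 fell by 1.08. Secreted growth factor and Wnt genes were higher in 21 and lower in 7 of 32 (20 higher and 5 lower without WT JIB-04 replicate 2; 22 higher and 1 lower after the rescaling), median 0.78; the lower count was 4 without CnaTg replicate 2, CnaTg replicate 3 or WT replicate 3. Ctgf, a matricellular factor of fibrosis, was at 199, 181 and 145 FPKM in the CnaTg libraries and 23.3, 29.5 and 23.5 FPKM in the WT libraries (log2 difference 2.73, SE 0.15). The vessel growth factors Vegfa and Vegfb and the platelet factor Pdgfa went the other way, falling by 0.49, 0.63 and 0.57 as deposited. Some members of these 3 lists did not reach 1 FPKM in every library, and a member that passes the filter only through its higher group is bound to differ. With at least 1 FPKM required in all 6 libraries, 14 were higher and 7 lower of 25 growth factor genes (median 0.38), 16 and 1 of 24 structural matrix genes, and 9 and 2 of 18 matrix processing genes. Members of other lists can pass the filter in this way as well, among them fetal, adrenergic and cell cycle genes.

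**Figure D3:**
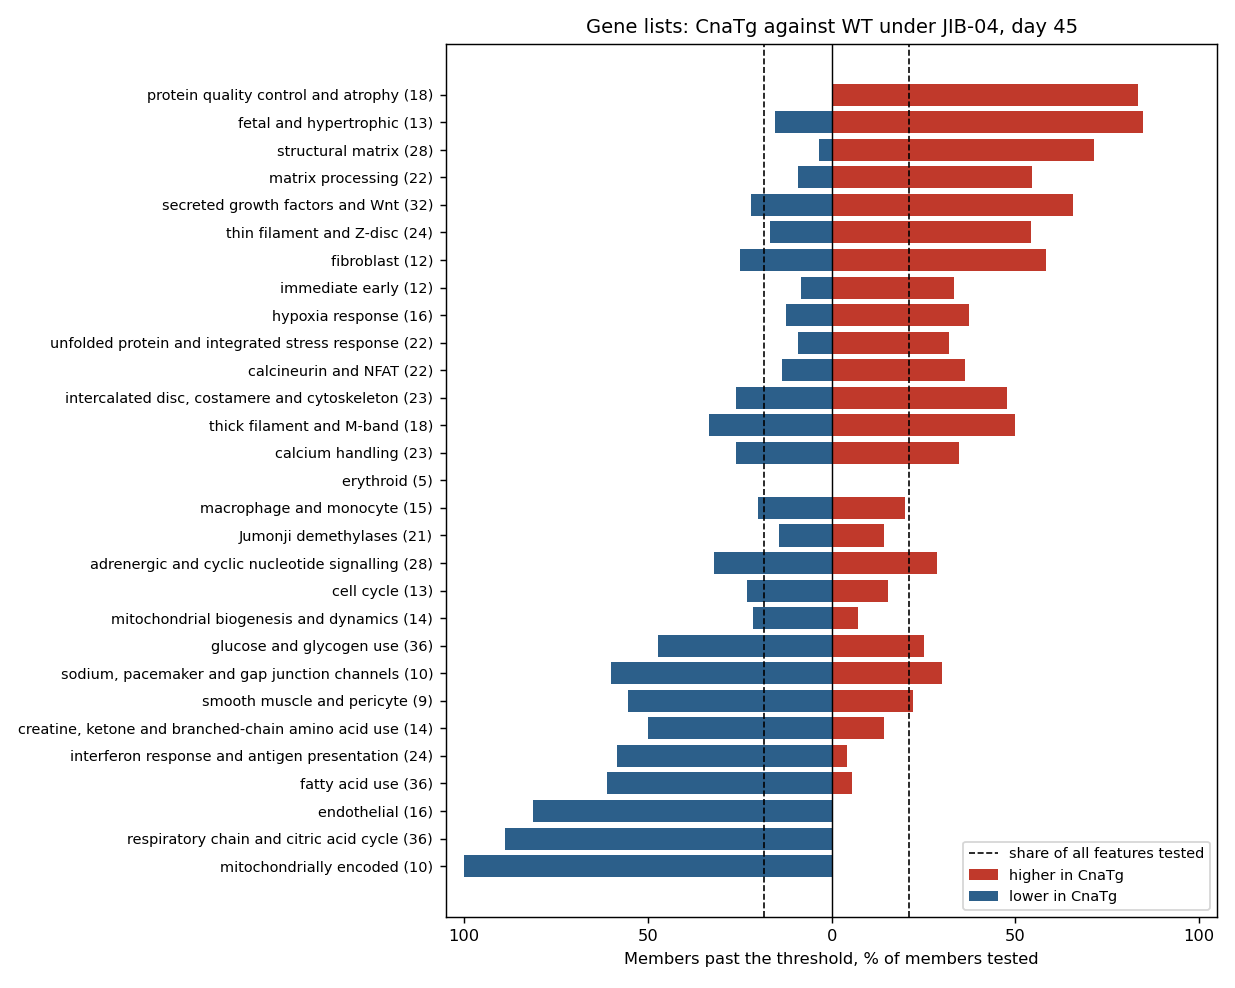
Share of tested members of each gene list (number tested in brackets; lists with at least 5) that were higher (red, right) or lower (blue, left) in CnaTg under JIB-04 at day 45; dashed lines mark the shares of all features, 21.0% and 18.5%. Fetal, matrix and protein quality control lists extend right, and mitochondrial, endothelial and fatty acid lists extend left.

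Markers of cell types other than heart muscle moved beside these groups. Of 12 fibroblast markers 7 were higher and 3 lower (6 higher and 3 lower without WT JIB-04 replicate 2; 4 higher without CnaTg replicate 3 or WT replicate 3), and their summed level was 879 to 937 FPKM in CnaTg and 586 to 756 FPKM in WT. Meox1, a regulator of activated fibroblasts, rose by 0.87, Tcf21, a fibroblast lineage factor, by 0.68, and Scara5 fell by 1.45. The matrix genes moved with these markers, and the part of fibroblast number in them was not tested. Of 16 endothelial markers 13 were lower and 0 higher (0 higher and 12 lower without WT JIB-04 replicate 2), with a summed level of 706 to 809.8 FPKM in CnaTg and 1239 to 1311 FPKM in WT. Cdh5, the cadherin of endothelial junctions, was at 29.1, 27.0 and 27.9 FPKM in the CnaTg libraries and 51.1, 62.3 and 60.5 FPKM in the WT libraries (log2 difference -1.02, SE 0.08), and the water channel Aqp1 fell by 1.38. The sums of the genotypes did not overlap, and no member was at 0 in all 6 libraries.

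Smooth muscle and pericyte markers were higher in 2 and lower in 5 of 9 (2 higher and 5 lower without WT JIB-04 replicate 2), with sums of 568 to 646 FPKM in CnaTg and 293 to 345 FPKM in WT. Acta2, smooth muscle actin, which also belongs to fetal heart muscle and activated fibroblasts, stood at 482, 421 and 486 FPKM in the CnaTg libraries and 92.1, 113 and 59.6 FPKM in the WT libraries, most of the sum in CnaTg but not in WT; the pericyte genes Rgs5 and Kcnj8 fell by 0.74 and 0.83. Macrophage and monocyte markers were 3 higher and 3 lower of 15, median -0.07, beside 21.0% and 18.5% of all features. The counts were 3 higher and 3 lower without WT JIB-04 replicate 2, and 3 higher and 0 lower after the rescaling. Their sums were 269.5 to 367 FPKM in CnaTg and 244 to 272 FPKM in WT. Lgals3, galectin 3, was at 13.6, 15.4 and 22.7 FPKM in the CnaTg libraries and 1.81, 1.91 and 1.46 FPKM in the WT libraries, while Cd163 and Lyve1 of resident macrophages fell by 0.47 and 0.63 as deposited; 1 member was lower without CnaTg replicate 2, when Cd163 lost its call. Lymphocyte, adipocyte and skeletal muscle markers were scarce: 1 of 10, 0 of 6 and 1 of 10 members reached the filter, the 1 skeletal member being Ckm, which heart muscle also expresses, and 2 skeletal markers were at 0 in all 6 libraries. Of 5 erythroid genes tested, 0 passed.

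Interferon response and antigen presentation genes were lower in 14 and higher in 1 of 24, median -0.58. This count rested on single libraries: it was 6 without WT replicate 2, 5 without CnaTg replicate 1 or without CnaTg replicate 2, 19 without CnaTg replicate 3 and 5 after the rescaling. Rsad2, an antiviral enzyme, was at 2.69, 2.24 and 2.29 FPKM in the CnaTg libraries and 6.58, 8.31 and 6.27 FPKM in the WT libraries, and Bst2 (tetherin) fell by 0.86, a call that was lost without CnaTg replicate 1 or CnaTg replicate 2. Igtp, an interferon-induced GTPase, was the 1 member that rose (0.90).

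Protein quality control and atrophy genes were higher in 15 of 18 and lower in 0 (15 higher and 0 lower without WT JIB-04 replicate 2), median 0.61. Bag3, a co-chaperone of the Z-disc, was at 265, 251 and 233 FPKM in the CnaTg libraries and 112, 112 and 106 FPKM in the WT libraries (log2 difference 1.17, SE 0.07), and the near-identical heat shock genes Hspa1a and Hspa1b, whose reads may be shared, rose by 1.70 and 1.77. Unfolded protein and integrated stress genes moved less, 7 higher and 2 lower of 22 (7 higher and 1 lower without WT JIB-04 replicate 2). Atf3, a stress-induced transcription factor, rose by 1.64, and Herpud1, of degradation at the endoplasmic reticulum, fell by 0.72. Of 16 hypoxia genes 6 were higher and 2 lower (5 higher and 2 lower without WT JIB-04 replicate 2), with Car9, a carbonic anhydrase, up by 2.23 and Adm, a vasodilator peptide, down (-0.60). The counts of the stress and hypoxia lists stand beside 21.0% and 18.5% of all features.

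Cell cycle genes were 2 higher and 3 lower of 13, beside 21.0% and 18.5% of all features. Without WT JIB-04 replicate 2 the counts were 2 higher and 1 lower. The lower count was 0 without CnaTg replicate 1 and 1 without CnaTg replicate 2. With at least 1 FPKM in all 6 libraries, 2 were higher and 1 lower of 10. Ccnd2, a D cyclin, rose by 1.22 and Cdkn1a, an inhibitor of cyclin kinases, by 0.68. The call of the replication gene Top2a (-0.65) was lost without WT replicate 2, CnaTg replicate 1 or CnaTg replicate 2. Immediate early genes were 4 higher and 1 lower of 12 (5 higher and 1 lower without WT JIB-04 replicate 2), beside the same shares of all features. Among them, Cyr61 rose by 1.65 and Jun by 0.71. Of 2 Schwann and neuronal and 4 atrial markers tested, 1 each was lower, Uchl1 (-0.68) and Stard10 (-1.10).

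The Jumonji family, whose demethylases JIB-04 inhibits, was looked at by its own genes. Of 21 genes on the Jumonji list, not all of them demethylases, 3 were higher and 3 lower, median 0.06, beside 21.0% and 18.5% of all features. Hr, a demethylase-like corepressor, was at 20.6, 20.3 and 27.7 FPKM in the CnaTg libraries and 10.7, 8.65 and 7.10 FPKM in the WT libraries (log2 difference 1.28, SE 0.22). Jarid2, a partner of the Polycomb repressor without enzyme activity of its own, was at 6.05, 7.72 and 6.36 FPKM in the CnaTg libraries and 9.11, 15.9 and 9.96 FPKM in the WT libraries (log2 difference -0.68, SE 0.17). WT replicate 2 was the highest library for Jarid2. Kdm6b and Phf8 fell by 0.34 and 0.31, and Kdm5a and Hif1an, the latter not a histone demethylase, were higher by 0.18 and 0.22. Without WT JIB-04 replicate 2 the calls of Kdm5a and Hif1an were lost and Kdm2b gained one (0.38). That left 2 higher and 3 lower over the list. Leaving out any 1 CnaTg library left 1 member higher. After the rescaling 10 were higher and 1 lower, with a median of 0.29 beside 0.24 over all features.

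Whether JIB-04 altered the transgene effect was asked by the difference between the effect with JIB-04 and the effect with vehicle at day 45, within one fit of 12 libraries. A batch or start week particular to the WT JIB-04 hearts would enter this difference and cannot be told apart from it. No feature passed (0 of 12803, smallest limma adjusted p = 0.999), and 476 (3.72%) had an unadjusted p under 0.05. The median 95% interval of this difference reached 0.31 log2 units to each side. Without the filter on low values 5 features passed, and without WT vehicle replicate 2, 1 passed. Of the 5058 features that passed under JIB-04, 4997 (98.8%) had the same sign with vehicle, and the log2 differences correlated with r = 0.900 and rho = 0.848 across features, which are not independent replicates; the 2 effects share no library.

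For the leading genes the effects lay close together. Ppp3ca differed by 5.89 with vehicle, with a difference of effects of 0.23, 95% interval -0.04 to 0.49. Igsf23 in vehicle hearts was at 72.8, 57.8 and 70.4 FPKM in CnaTg and 0.350, 0.534 and 0.699 FPKM in WT, and the difference of effects was -0.20, 95% interval -0.59 to 0.19. Ces1d with vehicle was at 3.77, 3.66 and 3.21 FPKM in CnaTg and 63.5, 56.0 and 83.1 FPKM in WT, with a difference of -0.10, 95% interval -0.68 to 0.48. All 3 intervals include 0. Rcan1 differed by 1.60 with vehicle and 1.60 with JIB-04 (difference 0.00, 95% interval -0.35 to 0.35), and Cs by -0.66 and -0.69 (difference -0.04, 95% interval -0.16 to 0.09). Of the 30 genes named by size, 1 had an unadjusted 95% interval that left out 0, Lrrc4b with 0.34, 95% interval 0.06 to 0.62. Timp4 had a difference of -0.86, 95% interval -1.73 to 0.01, and Ctgf, whose effect was 2.73 with JIB-04 and 3.22 with vehicle, had -0.49, 95% interval -0.96 to -0.01; none of these passed after adjustment.

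**Figure D4:**
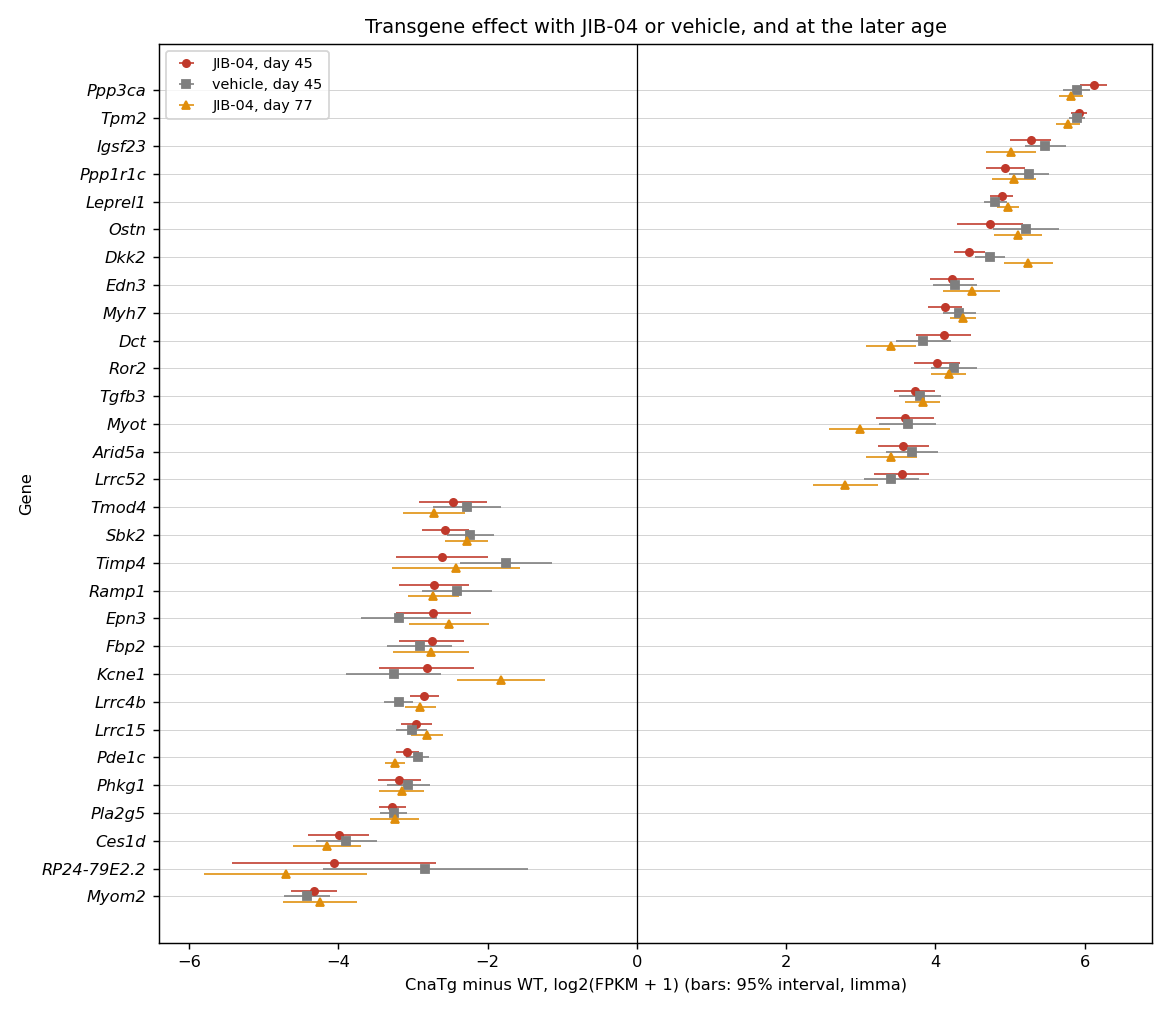
Log2 difference between CnaTg and WT with its 95% interval (limma) for the 30 genes named by size: red circles, JIB-04 at day 45; grey squares, vehicle at day 45; orange triangles, JIB-04 at day 77. For each gene the 3 estimates lie on the same side of 0, and most intervals overlap.

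Against day 77, with JIB-04 in both groups at both ages, 0 of 12803 features passed for the difference of the transgene effects (smallest limma adjusted p = 0.346), and 886 (6.92%) had an unadjusted p under 0.05. The median interval reached 0.30 log2 units to each side. Age goes together with the week at which treatment began. Of the 5058 features 4970 (98.3%) had the same sign at day 77, with r = 0.897 and rho = 0.847 across features. Among the 30 genes, 6 had an unadjusted interval that left out 0. The effect was nearer 0 at day 77 for Kcne1, which was at 0.518, 0.146, 0.568 and 0.589 FPKM in CnaTg and 5.19, 1.97 and 6.21 FPKM in WT (day 45 minus day 77 -1.0, 95% interval -1.86 to -0.13), and for Dct (0.70, 95% interval 0.22 to 1.19), Lrrc52 (0.76, 95% interval 0.11 to 1.40), Myot (0.61, 95% interval 0.01 to 1.20) and Ppp3ca (0.30, 95% interval 0.06 to 0.53). Dkk2 had a larger effect at day 77, 5.25 against 4.46 (difference -0.79, 95% interval -1.28 to -0.31).

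**Figure D5:**
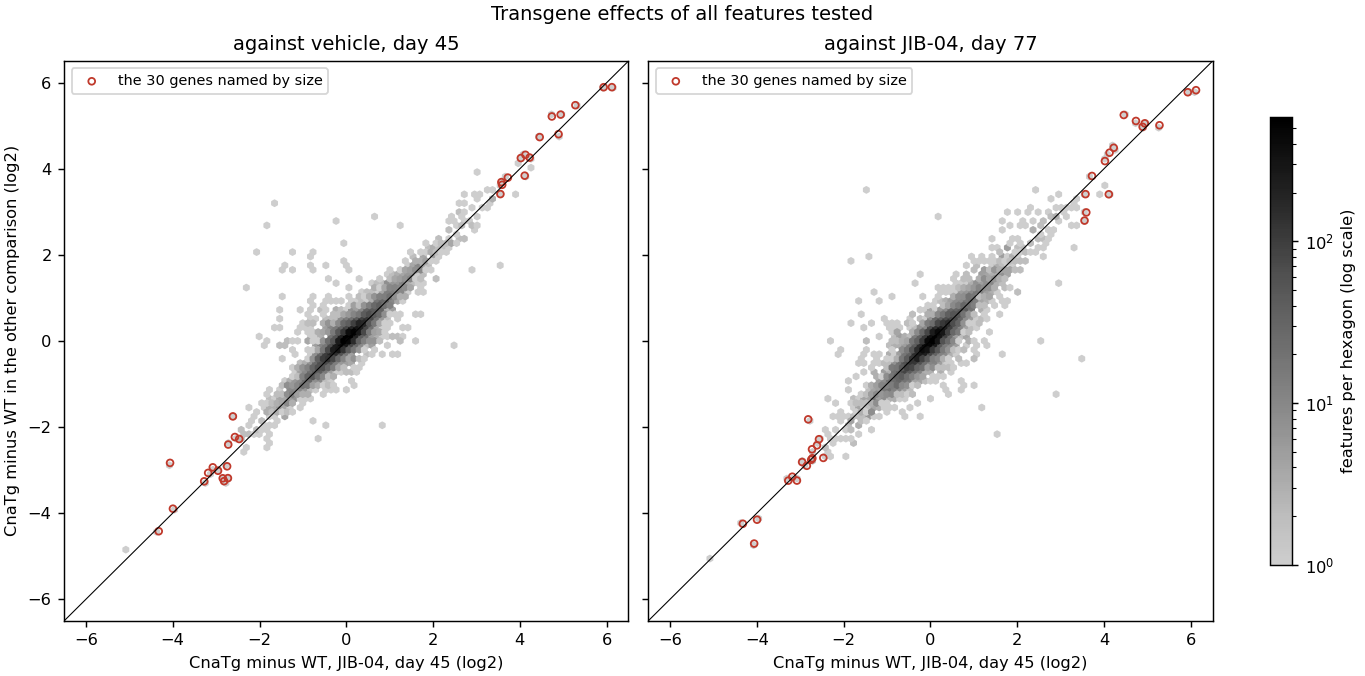
Log2 difference between CnaTg and WT of all 12803 features under JIB-04 at day 45 (x) against the same difference with vehicle at day 45 (left) or with JIB-04 at day 77 (right); grey hexagons are shaded by number of features, red circles are the 30 genes named by size, and the line marks equal effects. The features follow the line in both panels, with r = 0.900 and 0.897.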

How the data were processed

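RNA of mouse hearts was sequenced in 23 libraries that do not keep strand, per the labels' protocols. The submitters' processing notes name Cufflinks 2.2.1, GATK 4.1.2, Picard and STAR 2.7.1a and the build GRCm38; their roles, the annotation and filters are not given in the sources used here. The authors deposited log2 FPKM for 43154 features per library, per the file headers. Zeros and the lack of negative values showed it to be log2(FPKM + 1), so it was used as it stands and FPKM was computed back. Read counts and absolute depth are unknown. Of the features, 39344 had a GENCODE M21 symbol; starts were shifted to 1-based positions. The mitochondrial features mt-Co3, mt-Atp8 and mt-Atp6 stayed out under the rule that defines the comparison; mt-Co3 was listed at 0 in 3 of the 6 libraries.

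Features with at least 1 FPKM in 3 of the 6 libraries were tested with limma 3.58.1 in R 4.3.3 (empirical Bayes with trend, two-sided, Benjamini-Hochberg adjustment, threshold 0.05), in 1 fit of the 12 day-45 libraries, and of all 23 for age. With 3 libraries against 3, an exact permutation test cannot go below p = 0.1, so single values were not tested that way. The fit was tested on simulated data. Genes were named by a rule: up to 15 each way with the largest difference among those past the threshold whose libraries do not overlap and whose higher mean is at least 2 FPKM (gene models named Gm or Rik, pseudogenes, Xist and Y-linked genes left out), up to 3 each way per list, and a set of fixed genes. The comparison, its 34 gene lists (646 genes) and the naming rule were chosen with earlier results of these data known. List counts are descriptions, and some members of the lists are not reported here by name. Alternatives were other filters, pseudocounts, scalings, covariates, a replicate block and leaving out each library; their effect is given at the end. In the deposit the WT hearts given JIB-04 carry numbers separate from the rest, and a batch of their own cannot be told apart from the group.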

Additional observations from a re-analysis of the deposited data

How the results depend on the processing

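As deposited, 5058 features passed for the transgene effect under JIB-04; leaving out 1 library at a time gave 4213 to 4496 (higher 2186 to 2466, lower 1961 to 2168), and without WT replicate 2, 4181 of the 5058 were called again, with 0 of opposite sign. After leaving out mitochondrial and hemoglobin genes and rescaling, 5016 were higher and 990 lower; after rescaling on nuclear coding genes without hemoglobin, chosen after seeing the data, 3060 and 2124. Median-ratio scaling called 2557 and 2581 and quantile normalization 2492 and 2586. With Xist against Ddx3y as a covariate, 4881 passed and Calr, Hif1an, Rrm2 and Tpm1 lost their call; with at least 1 FPKM in all 6 libraries 4568 of 11543 passed, and with a pseudocount of 0.1, 5045. The difference between treatments, 0 as deposited, was 5 without the filter on low values and 1 without WT vehicle replicate 2, and the range over left-out libraries was 0 to 1; the difference between ages was 1 with a pseudocount of 0.1 and 1 without the filter. The cause was not tested.

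After the mitochondrial and hemoglobin rescaling, 24 of the 195 named genes lost their call, 7 gained one, and Fhl2 (0.023), Tmem143 (0.033), Tpm1 (0.042) and Tpm3 (0.016) turned positive without passing. Under quantile normalization mt-Co1 (0.22), mt-Nd3 (0.40), Myh6 (0.058) and Tpm1 (0.26) did so. Csrp3, Fhl2, Hif1an, Kdm5a, Pln and Tnni3 kept their direction there but lost their call. Calr, Col4a1, Gja1, Hif1an, Irf7, Kdm5a, Nrf1, Rrm2, Top2a and Tpm1 lost their call without WT replicate 2.

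Libraries of the 2 groups share only a replicate number: same-numbered deviations correlated at -0.01, -0.05 and -0.12. With that number as a replicate block, 4933 features passed (2631 higher, 2302 lower), and 0 for either difference of effects. A fit of the 6 libraries alone called 4709, and 3999 with the replicate block. Depth is known only in relative terms, and the shallower WT libraries limit what can be said of genes near 1 FPKM.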

Other observations

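Long non-coding RNAs followed the same comparison. Of 457 tested, 80 were higher and 80 lower in CnaTg, beside 21.0% and 18.5% of all features, with a median log2 difference of -0.01. The few named here were chosen after their values were seen. Several lay beside, or opposite to, protein-coding genes described above, whose reads the kit cannot separate by strand. Gm15743 (chromosome 16, 31427876 to 31429776), antisense within Bdh1, was at 7.42, 6.21 and 5.65 FPKM in the CnaTg libraries and 0.275, 0.249 and 0.192 FPKM in the WT libraries. Gm12762 (chromosome 7, 34230420 to 34234075), next to Gpi1, was at 13.7, 18.0 and 16.2 FPKM in the CnaTg libraries and 0, 0.192 and 0.0534 FPKM in the WT libraries, and Gm4524, an antisense model that overlaps an end of Leprel1, rose by 2.96. Gm12454 (chromosome 4, 43504428 to 43508747), an antisense model that overlaps the start of Car9, rose by 2.69. Each of these rose, as did the gene it overlaps or adjoins.

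Gm15543, antisense to Casc1 (chromosome 6, 145182275 to 145187630), was the long non-coding RNA with the largest difference, at 3.35, 6.85 and 4.39 FPKM in the CnaTg libraries and 196, 167 and 206 FPKM in the WT libraries (log2 difference -5.06, -4.84 with vehicle and -5.01 at day 77). It exceeded the decrease of Myom2, the largest among the genes named by rule. Gm12295, a long intergenic RNA (chromosome 11, 65277654 to 65365798), rose by 3.95 with JIB-04 and by 3.37 with vehicle.

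The features with the smallest unadjusted p for a difference between treatments, none of which passed after adjustment, were Commd9 (0.69, 95% interval 0.44 to 0.94), Cpeb1 (0.67, 95% interval 0.32 to 1.02) and Tmem241 (0.61, 95% interval 0.29 to 0.93) on the positive side (JIB-04 minus vehicle), and Fundc1 (-0.50, 95% interval -0.70 to -0.29), Rps2-ps6 (-0.44, 95% interval -0.63 to -0.25) and Gm14284 (-0.94, 95% interval -1.35 to -0.52) on the negative side. Between ages they were Tmem143 (0.38, 95% interval 0.22 to 0.53), Mks1 (0.64, 95% interval 0.36 to 0.93) and Mtcp1 (1.18, 95% interval 0.65 to 1.71) on the positive side, and Aspn (-0.72, 95% interval -1.01 to -0.43), Gm21747 (-0.84, 95% interval -1.22 to -0.46) and Plekhh1 (-0.67, 95% interval -0.99 to -0.35) on the negative side, day 45 minus day 77.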
